A study of Mus musculus with 11 samples.

Results

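The genes described here are the integrins, collagens, laminins and matrix proteases of B16F10 cells, a mouse melanoma line grown in culture. They were chosen by symbol from the protein-coding rows of an RNA-seq table, in 7 families: integrin subunits, laminin chains, collagen chains, matrix metalloproteinases (MMP), their tissue inhibitors (TIMP), ADAM proteases and ADAMTS proteases. Of 96 matching rows among 14528 in the table, 53 had a mean of at least 0.5 FPKM (fragments per kilobase of transcript, scaled to the size of the library) over the 11 libraries, and 43 did not. By family, 12 of 18 integrin, 5 of 9 laminin, 15 of 31 collagen, 4 of 11 MMP, 3 of 4 TIMP, 7 of 10 ADAM and 7 of 13 ADAMTS rows passed. The mean FPKM chose these genes, so their overall level is a description. In 5 of the 53 (Col2a1, Col4a1, Col27a1, Itga3 and Itgb4) the lowest group mean was under the limit, so that they passed through the groups in which they were higher. A difference between groups entered the choice of these 5, so the differences of the 3 described below (Col4a1, Col2a1 and Itga3) are given with no test. The symbol patterns also took in Itgb1bp1, Itgb3bp and Col4a3bp, which are no subunits: they encode an integrin-binding adaptor (ICAP1), a centromere protein (CENP-R) and a ceramide transfer protein (CERT). The patterns missed Itgav, the αV integrin subunit, which is given with the adhesion genes.

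The libraries came from 2 knockout lines named ΔUNG and ΔUNG_2, in which Ung, the gene for uracil-DNA glycosylase, was targeted, and from a Cas9 control line labelled wild type. Uracil-DNA glycosylase removes uracil from DNA. Each line had been kept for 48 h with 5 µM of the ATR inhibitor AZD6738 (ATRi) or with its vehicle DMSO. ATR is the kinase that signals stalled replication. The groups were ΔUNG ATRi, ΔUNG DMSO, ΔUNG_2 DMSO, Cas9 control ATRi and Cas9 control DMSO with 2 libraries each, labelled as biological replicates, and ΔUNG_2 ATRi with 1. Each knockout line is a line of its own, and a difference between it and the control cannot be told apart from differences between lines that have nothing to do with Ung. Nothing in the labels says whether replicates came from separate cultures, so p-values measure only the spread between these libraries.

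Integrins are receptors of an α and a β subunit that bind cells to the extracellular matrix and to other cells. Laminins and type IV collagen build the basement membrane, the sheet that a melanoma has to cross to invade, while fibrillar collagens build the tissue behind it. MMPs and ADAMTS proteases cut matrix proteins, ADAM proteases shed proteins from the cell surface, and TIMPs block all of these to different degrees. Melanoma cells make several of these genes themselves, and others reach a tumour from its fibroblasts and vessels, which a cell line in culture does not have.

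The libraries held 15980684 to 26861794 fragments assigned to genes, recovered from the FPKM values and the transcript lengths. At these depths a gene of 1 kb with 3 fragments stands at 0.105 to 0.176 FPKM. Ung itself was at 0.675 to 1.39 FPKM in the 4 ΔUNG libraries and 1.74 to 2.01 FPKM in the 3 ΔUNG_2 libraries, against 2.48 to 2.999 FPKM in the 4 control libraries, and the groups did not overlap. All 9 melanocyte markers were listed, with a summed level of 8487 to 11167 FPKM and none at 0. Of the fibroblast markers 4 of 8 were listed (Pdgfra, Pdgfrb, Fap and Prrx1), summing to 0.616 to 1.04 FPKM in ATRi libraries, against 1.24 to 1.96 FPKM in DMSO libraries. Of the leukocyte markers 2 of 7 were listed (Cd68 and Fcer1g), summing to 9.62 to 13.6 FPKM under ATRi, against 2.94 to 6.70 FPKM under DMSO. Cd68 alone was higher, at 8.70 to 12.02 FPKM under ATRi, against 2.11 to 4.52 under DMSO, while Fcer1g overlapped, at 0.563 to 1.72 FPKM under ATRi, against 0.838 to 2.19 under DMSO. Of the endothelial markers 3 of 6 were listed (Pecam1, Tek and Vwf), summing to 0.319 to 0.499 FPKM under ATRi, against 0.0595 to 0.212 FPKM under DMSO, and Krt5, listed of the 6 keratinocyte markers, was at 0 to 0.297 FPKM. The fibroblast, leukocyte and endothelial sums thus moved with ATRi, the leukocyte sum through Cd68, and their part in the results on ATRi below was not tested. In such bulk libraries fewer expressing cells and less RNA per cell cannot be told apart.

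**Figure D1:**
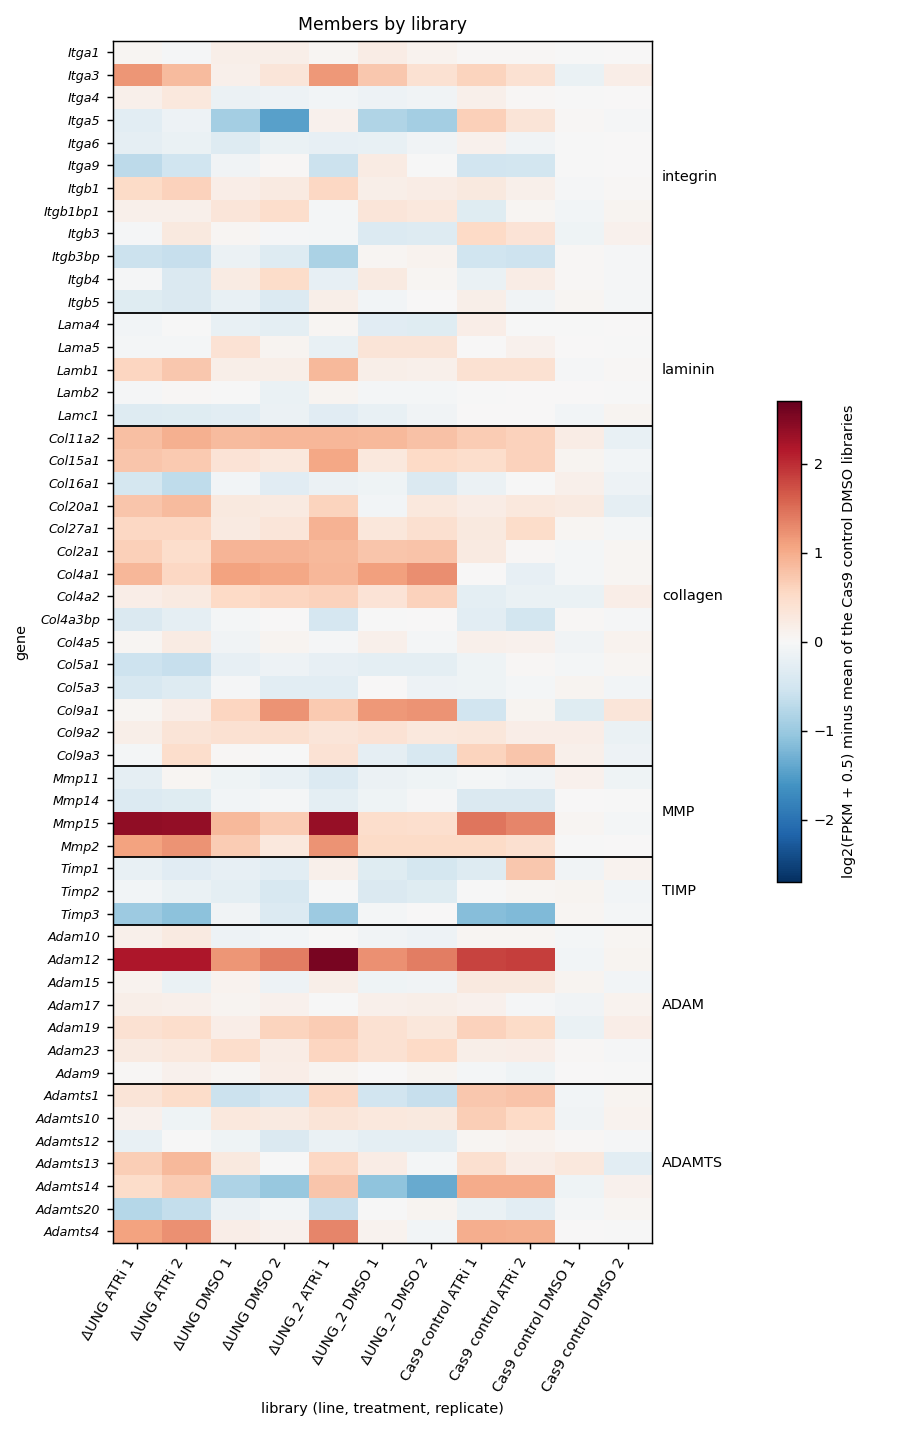
Level of each of the 53 genes (rows, by family) in each of the 11 libraries (columns), as log2(FPKM + 0.5) minus the mean of the Cas9 control DMSO libraries. Mmp15 and Adam12 are reddest in the 5 ATRi libraries and also red in the ΔUNG and ΔUNG_2 DMSO libraries; Adamts14 is blue in the ΔUNG and ΔUNG_2 DMSO libraries and red under ATRi, and Timp3 is blue under ATRi.

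Both knockout lines differed from the Cas9 control in a minority of these genes. In DMSO, the ADAM protease Adam12 and the membrane protease Mmp15 were higher in both lines, and the integrin subunit Itga5 and the proteases Adamts14 and Adamts1 were lower in both. Of the 53 genes, 5 were higher and 4 lower in ΔUNG than in the control (17.0%). Of all 11323 genes tested 8.72% were called, 5.47% higher and 3.25% lower, meaning that limma's moderated test on log2(FPKM + 0.5) gave a two-sided Benjamini-Hochberg adjusted p under 0.05. In ΔUNG_2, 7 were higher and 5 lower (22.6%), against 8.20% of all genes, 4.47% higher and 3.73% lower. Under ATRi, 4 were higher and 6 lower in ΔUNG (18.9%), against 6.14% of all genes, 3.01% higher and 3.13% lower. In ΔUNG_2 under ATRi 7 were higher and 0 lower (13.2%), against 5.01% of all genes, 2.74% higher and 2.27% lower. These counts hold Col4a1, called in each of the 4 comparisons, and Col2a1, called in both under DMSO, which passed the limit through the knockout groups. Over the 48 genes with every group mean at 0.5 FPKM or more, 3 were higher and 4 lower in ΔUNG (14.6%) and 5 higher and 5 lower in ΔUNG_2 (20.8%) under DMSO. Under ATRi, 3 of the 48 were higher and 6 lower in ΔUNG (18.8%) and 6 higher and 0 lower in ΔUNG_2 (12.5%). The median log2 fold change of the 53 genes was 0.01 in ΔUNG and 0.05 in ΔUNG_2 under DMSO, against 0 and -0.01 over all genes. The comparisons within one treatment use the same control libraries, so what ΔUNG and ΔUNG_2 share against the control is not independent evidence. These counts moved with single libraries: a call is named below as lost where leaving out a library, or another setting, took its adjusted p over 0.05. The only ΔUNG_2 ATRi library could not be left out. In ΔUNG under DMSO, 8, 7, 6 and 5 genes were called without ΔUNG DMSO replicates 1 and 2 and Cas9 control DMSO replicates 1 and 2 in turn. In ΔUNG_2 under DMSO, the counts were 4 and 3 without ΔUNG_2 DMSO replicates 1 and 2, and 5 without either Cas9 control DMSO library. Under ATRi, the count in ΔUNG was 4 without ΔUNG ATRi replicate 1, 1 without ΔUNG ATRi replicate 2 and 4 without either Cas9 control ATRi library, and in ΔUNG_2 it was 2 without either Cas9 control ATRi library.

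After ATRi, Mmp15, Adamts14, Adamts1, Adamts4 and Adam12 were higher in each line, Itga9 and Timp3 were lower in each line, and most other genes moved less. In ΔUNG, 15 of the 53 were higher and 7 lower under ATRi than under DMSO (41.5%), against 35.8% of all genes, 16.5% higher and 19.4% lower. In ΔUNG_2, 13 were higher and 6 lower (35.8%), against 35.4% of all genes, 18.1% higher and 17.3% lower. In the control 14 were higher and 5 lower (35.8%), against 33.6% of all genes, 16.8% higher and 16.8% lower. The shares of called genes were near those of all genes, so the number of calls says nothing particular about these families. More were higher than lower, with medians of 0.05, 0.10 and 0.09 in ΔUNG, ΔUNG_2 and the control, against -0.02, 0.00 and -0.01 over all genes. In the control the count was 12 without Cas9 control DMSO replicate 1, and 14, 18 and 15 without the other three libraries in turn. Scaling each library to an equal FPKM sum took away 51 of the 98 calls made in the 7 comparisons and reversed none. In that sum 1 short RNA gene, Gm23935, made up 10.3% to 26.3%, and its part in the lost calls was not tested. Scaling on genes of at least 200 bases, a setting added after seeing the data, took away 7. Calls lost only with the equal FPKM sum are not named again. Of the 98 calls 7 are those of Col4a1, Col2a1 and Itga3.

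Position on the genome moved with the differences between the lines. Over the 332 tested genes of chromosome 8 from 80 Mb onward, which include Itgb1, Mmp15 and Mmp2, the median log2 fold change was 0.35 in ΔUNG and 0.34 in ΔUNG_2 against the control under DMSO, and 134 (40.4%) and 127 (38.3%) of them were called higher. Of the tested genes outside chromosomes 8 and 12, 3.71% and 2.92% were called higher. Over the 436 tested genes of chromosome 12, which include Adam17, Itgb1bp1 and Lamb1, the medians were 0.24 and 0.23. Under ATRi the medians against the control were 0.32 and 0.40 for the chromosome 8 stretch and 0.24 and 0.21 for chromosome 12. For the first 80 Mb of chromosome 8, with Adam9, Col4a1 and Col4a2, they were -0.02 and -0.03 under DMSO. The part of these shifts in the differences of Itgb1, Mmp15, Mmp2 and Lamb1 between lines was not tested. Within a line, ATRi moved the chromosome 8 stretch by a median of -0.02, 0.08 and 0.02 in ΔUNG, ΔUNG_2 and the control.

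**Figure D2:**
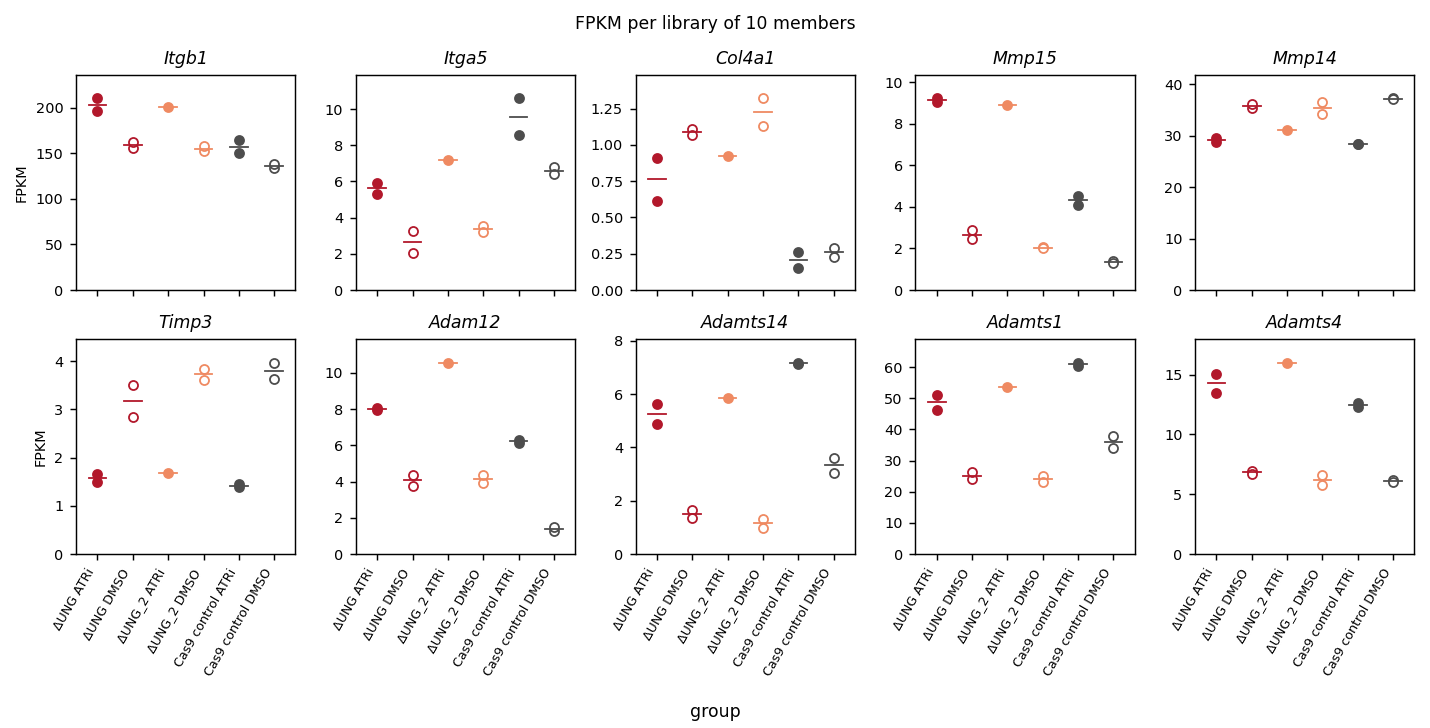
FPKM in each library (points) and group mean (lines) for 10 of the genes, with the groups on the x axis and filled points for ATRi. Col4a1 is at 0.616 FPKM or more in every ΔUNG and ΔUNG_2 library and at 0.292 or less in every control library; Mmp15, Adam12, Adamts14, Adamts1 and Adamts4 lie higher under ATRi than under DMSO in every line.

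Among the integrins, Itgb1 was the most abundant gene of all 7 families. It encodes the β1 subunit, which pairs with most of the α subunits listed here. Itgb1 had 196 and 210.1 FPKM under ATRi, against 156 and 162 under DMSO, in ΔUNG. ΔUNG_2 had 201 against 153 and 158, and the Cas9 control 165 and 149.9 against 134 and 139. The ATRi libraries lay above the DMSO libraries of their own line in each of the 3 lines. With ATRi it was higher in ΔUNG, by 0.35 ± 0.07 (log2 fold change ± SE, here and below, with a negative value for a gene that was lower; adjusted p = 0.00398), and in ΔUNG_2 by 0.37 ± 0.09 (adjusted p = 0.00899). The ΔUNG_2 call was lost with ΔUNG_2 DMSO replicate 1 left out (0.35, adjusted p = 0.0516). In the control the value was 0.20 ± 0.07 (adjusted p = 0.0513), which missed the threshold. Against the control under ATRi it was higher by 0.37 ± 0.07 in ΔUNG (adjusted p = 0.0160) and by 0.36 ± 0.09 in ΔUNG_2 (adjusted p = 0.0481). Both calls depended on single libraries: the ΔUNG call was lost with Cas9 control ATRi replicate 2 left out (0.30, adjusted p = 0.0577) or with ΔUNG ATRi replicate 2 left out (0.32, adjusted p = 0.120), and in a fit of only the groups compared, and the ΔUNG_2 call with Cas9 control ATRi replicate 2 left out (0.29, adjusted p = 0.0825), and with no filter, with an equal FPKM sum over genes of at least 200 bases, in a fit of only the groups compared, with the replicate number as a block or with no intensity trend. The medians of the chromosome 8 stretch that holds Itgb1 were 0.32 in ΔUNG and 0.40 in ΔUNG_2 in the same comparisons. Of the summed FPKM of the 4 β subunits, Itgb1 made up 90.0% and 90.2% under ATRi, against 86.6% and 88.0% under DMSO, in ΔUNG, 87.9% against 86.6% and 86.5% in ΔUNG_2, and 84.0% and 84.7% against 83.7% and 84.3% in the control.

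Itga5 (chr15:103344286-103366763) encodes the α5 subunit, which with β1 forms the main fibronectin receptor. Itga5 had 3.25 and 2.07 FPKM in ΔUNG and 3.56 and 3.23 in ΔUNG_2 under DMSO, against 6.79 and 6.40 in the Cas9 control. Itga5 under ATRi was at 5.32 and 5.92 FPKM in ΔUNG and 7.20 in ΔUNG_2, against 10.6 and 8.59 in the Cas9 control. The knockout lines and the control did not overlap within a treatment, and every line was higher under ATRi. Under DMSO it was lower, at -1.19 ± 0.17 in ΔUNG (adjusted p = 0.00297), a call that held with any 1 library left out. In ΔUNG_2 the difference was -0.87 ± 0.17 (adjusted p = 0.0136), lost with any of the 4 libraries left out (values of -0.93 to -0.81, adjusted p = 0.0596 to 0.0996). Under ATRi the ΔUNG difference was -0.72 ± 0.17 (adjusted p = 0.0374), lost with Cas9 control ATRi replicate 1 left out (-0.57, adjusted p = 0.183), with ΔUNG ATRi replicate 1 left out (-0.65, adjusted p = 0.144) or with ΔUNG ATRi replicate 2 left out (-0.79, adjusted p = 0.127), and with no filter or with no intensity trend, and that in ΔUNG_2 was -0.38 ± 0.21 (adjusted p = 0.313). ATRi raised Itga5 by 0.98 ± 0.17 in ΔUNG (adjusted p = 0.00180) and by 0.98 ± 0.21 in ΔUNG_2 (adjusted p = 0.00557), each in all leave-outs. In the control it was higher by 0.50 ± 0.17 (adjusted p = 0.0449), lost with Cas9 control ATRi replicate 1 left out (0.36, adjusted p = 0.217), with Cas9 control DMSO replicate 1 left out (0.54, adjusted p = 0.109) or with Cas9 control DMSO replicate 2 left out (0.46, adjusted p = 0.170), and with a pseudocount of 0.1, with no filter, with an equal FPKM sum over genes of at least 200 bases or with no intensity trend.

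Itga9, whose product pairs with β1 and binds tenascin and VCAM1, went the other way. Itga9 had 2.74 and 3.19 FPKM under ATRi, against 4.46 and 4.95 under DMSO, in ΔUNG. ΔUNG_2 had 3.09 against 5.74 and 4.75, and the Cas9 control 3.20 and 3.26 against 4.78 and 4.88. It fell with ATRi in each line, with log2 fold changes of -0.59 ± 0.11 in ΔUNG, -0.68 ± 0.14 in ΔUNG_2 and -0.51 ± 0.11 in the control (adjusted p = 0.00359, 0.00541 and 0.00798), and no leave-out ended a call. The centromere gene Itgb3bp fell likewise, at -0.35 ± 0.09, -0.92 ± 0.11 and -0.55 ± 0.09, although it is no integrin. It had 4.07 and 3.99 FPKM under ATRi, against 5.67 and 4.90 under DMSO, in ΔUNG. ΔUNG_2 had 3.32 against 6.65 and 6.80, and the Cas9 control 4.21 and 4.16 against 6.56 and 6.18. The call of Itgb3bp in ΔUNG (adjusted p = 0.0157) was lost with ΔUNG ATRi replicate 1 left out (-0.36, adjusted p = 0.0502), with ΔUNG ATRi replicate 2 left out (-0.34, adjusted p = 0.0679) or with ΔUNG DMSO replicate 1 left out (-0.25, adjusted p = 0.0881), and in a fit of only the groups compared.

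Of the laminin-binding α subunits, Itga6 was the most abundant α chain and passed no comparison. Itga6 had 15.1 and 15.9 FPKM under ATRi, against 14.1 and 15.9 under DMSO, in ΔUNG. ΔUNG_2 had 15.3 against 15.5 and 16.9, and the Cas9 control 19.5 and 16.7 against 17.9 and 18.1. Each knockout library lay below the control libraries of its treatment, by amounts that passed no test. Itga3, the other laminin receptor chain, had 1.10 and 0.766 FPKM under ATRi, against 0.276 and 0.381 under DMSO, in ΔUNG. ΔUNG_2 had 1.09 against 0.660 and 0.443, and the Cas9 control 0.572 and 0.435 against 0.124 and 0.295. The ATRi libraries lay above the DMSO libraries of their own line. It passed the limit through the groups in which it was higher, mainly those under ATRi, so the ATRi differences of 0.78 ± 0.22 in ΔUNG, 0.60 ± 0.27 in ΔUNG_2 and 0.51 ± 0.22 in the control are given with no test. Itga4, which with β1 binds VCAM1 and fibronectin, had 13.6 and 15.1 FPKM under ATRi, against 10.9 and 11.1 under DMSO, in ΔUNG. ΔUNG_2 had 11.7 against 11.1 and 11.4, and the Cas9 control 13.6 and 12.6 against 12.3 and 12.3. ATRi raised it in ΔUNG by 0.36 ± 0.07 (adjusted p = 0.00481) in all leave-outs, with 0.05 in ΔUNG_2 and 0.09 in the control.

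The β3 and β5 subunits pair with αV to bind vitronectin. Itgb3 had 6.93 and 8.58 FPKM under ATRi, against 7.40 and 6.89 under DMSO, in ΔUNG. ΔUNG_2 had 6.78 against 5.40 and 5.49, and the Cas9 control 10.5 and 9.30 against 6.45 and 7.78. In the control both ATRi libraries lay above both DMSO libraries, and the difference of 0.45 ± 0.12 was called (adjusted p = 0.0183). It was lost with Cas9 control ATRi replicate 1 left out (0.37, adjusted p = 0.0971) or with Cas9 control DMSO replicate 1 left out (0.33, adjusted p = 0.128), and the values in ΔUNG and ΔUNG_2 were 0.10 and 0.29. Itgb5 had 15.8 and 14.0 FPKM in ΔUNG and 17.4 and 18.4 in ΔUNG_2 under DMSO, against 19.0 and 17.5 in the Cas9 control. Itgb5 under ATRi was at 14.3 and 13.8 FPKM in ΔUNG and 20.4 in ΔUNG_2, against 20.4 and 17.1 in the Cas9 control. It was lower in ΔUNG under ATRi, at -0.39 ± 0.10 (adjusted p = 0.0440), lost with Cas9 control ATRi replicate 1 left out (-0.27, adjusted p = 0.203), with ΔUNG ATRi replicate 1 left out (-0.42, adjusted p = 0.107) or with ΔUNG ATRi replicate 2 left out (-0.37, adjusted p = 0.208), and with no filter, in a fit of only the groups compared or with no intensity trend. Itgb4, the partner of α6 in hemidesmosomes, and the adaptor gene Itgb1bp1 passed no comparison.

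The 5 laminin chains were led by Lamc1, the γ1 chain present in most laminins, and Lamb2. Lamc1 had 17.7 and 19.3 FPKM in ΔUNG and 18.7 and 20.2 in ΔUNG_2 under DMSO, against 20.7 and 22.8 in the Cas9 control. Lamc1 under ATRi was at 17.0 and 17.1 FPKM in ΔUNG and 17.5 in ΔUNG_2, against 22.0 and 22.0 in the Cas9 control. It lay lower in both knockout lines than in the control under ATRi, and the ΔUNG difference of -0.36 ± 0.08 was called (adjusted p = 0.0240). The call was lost with any of the 4 libraries left out (values of -0.37 to -0.35, adjusted p = 0.0690 to 0.119), and in a fit of only the groups compared. Lamb2 had 13.8 and 14.5 FPKM under ATRi, against 14.0 and 12.5 under DMSO, in ΔUNG. ΔUNG_2 had 15.05 against 13.6 and 13.6, and the Cas9 control 14.1 and 14.3 against 14.2 and 14.1. It passed no comparison. Lamb1, the β1 chain, had 6.25 and 7.03 FPKM under ATRi, against 4.58 and 4.58 under DMSO, in ΔUNG. ΔUNG_2 had 7.89 against 4.57 and 4.53, and the Cas9 control 5.53 and 5.52 against 3.97 and 4.11. It rose with ATRi in each line, by 0.49 ± 0.09 in ΔUNG, 0.73 ± 0.10 in ΔUNG_2 and 0.41 ± 0.09 in the control (adjusted p = 0.00191, 0.000763 and 0.00588), and in all leave-outs. Against the control under ATRi it was higher by 0.48 ± 0.10 in ΔUNG_2 (adjusted p = 0.0329), lost with Cas9 control ATRi replicate 1 left out (0.48, adjusted p = 0.0989) or with Cas9 control ATRi replicate 2 left out (0.48, adjusted p = 0.0596), and with an equal FPKM sum over genes of at least 200 bases, in a fit of only the groups compared or with the replicate number as a block.

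Lama4 and Lama5 encode α chains that in tissues occur in vessel and epithelial basement membranes. Lama4 had 9.58 and 10.0 FPKM under ATRi, against 8.75 and 8.26 under DMSO, in ΔUNG. ΔUNG_2 had 10.5 against 8.05 and 7.90, and the Cas9 control 11.5 and 10.0 against 10.0 and 10.1. It was lower in ΔUNG_2 than in the control under DMSO, at -0.32 ± 0.08 (adjusted p = 0.0466), lost with any of the 4 libraries left out (values of -0.33 to -0.30, adjusted p = 0.179 to 0.225), and with no filter, with the replicate number as a block or with no intensity trend, and higher with ATRi in ΔUNG_2 by 0.38 ± 0.10 (adjusted p = 0.0179), lost with ΔUNG_2 DMSO replicate 1 left out (0.39, adjusted p = 0.0569) or with ΔUNG_2 DMSO replicate 2 left out (0.36, adjusted p = 0.0713). Lama5 had 2.23 and 2.21 FPKM under ATRi, against 3.22 and 2.47 under DMSO, in ΔUNG. ΔUNG_2 had 1.94 against 3.11 and 3.10, and the Cas9 control 2.34 and 2.57 against 2.35 and 2.29. It was lower with ATRi in ΔUNG_2, with -0.56 ± 0.15 (adjusted p = 0.0194), lost with ΔUNG_2 DMSO replicate 1 left out (-0.56, adjusted p = 0.0658) or with ΔUNG_2 DMSO replicate 2 left out (-0.56, adjusted p = 0.0654). Of the laminins only the ATRi calls of Lamb1 held in every leave-out.

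Type IV collagen is a trimer, and Col4a1 and Col4a2 encode the chains of its common form. The 2 genes lie head to head on chromosome 8 (GRCm38), Col4a1 on the minus strand and Col4a2 on the plus strand, with 5′ ends in the deposited annotation that overlap by 22 bases. The window at the Col4a2 start is shown because both genes lay on the same side of the control in the knockout lines. Its 300 bases are those from 250 before to 50 after the Col4a2 start in RefSeq (GRCm38.p6, chr8:11312555-11312854, plus strand). Most of these bases lie within Col4a1, whose annotated 5′ end is at 11312826, so few of them lie upstream of Col4a1. Capitals mark GC boxes (GGGCGG on either strand).
Col4a2: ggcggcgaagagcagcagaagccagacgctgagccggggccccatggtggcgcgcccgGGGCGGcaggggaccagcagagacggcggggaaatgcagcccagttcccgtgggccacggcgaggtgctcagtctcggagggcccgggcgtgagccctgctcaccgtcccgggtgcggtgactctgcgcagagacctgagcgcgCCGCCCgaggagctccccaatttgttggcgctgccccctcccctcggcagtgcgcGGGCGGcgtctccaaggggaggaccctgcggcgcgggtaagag

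Col4a1 (chr8:11198423-11312826) had 1.11 and 1.07 FPKM in ΔUNG and 1.13 and 1.32 in ΔUNG_2 under DMSO, against 0.227 and 0.292 in the Cas9 control. Col4a1 under ATRi was at 0.909 and 0.616 FPKM in ΔUNG and 0.921 in ΔUNG_2, against 0.259 and 0.152 in the Cas9 control. The 7 knockout libraries all lay above the 4 control libraries. It passed the limit of 0.5 FPKM through the knockout groups, so these differences are a description, with no test. Under DMSO they were 1.07 ± 0.19 in ΔUNG and 1.18 ± 0.19 in ΔUNG_2, and under ATRi 0.83 ± 0.19 in ΔUNG and 1.01 ± 0.23 in ΔUNG_2. The pseudocount understates these folds, because the control libraries lie under 0.3 FPKM. Col4a2 had 1.58 and 1.65 FPKM in ΔUNG and 1.36 and 1.72 in ΔUNG_2 under DMSO, against 0.767 and 1.12 in the Cas9 control. Col4a2 under ATRi was at 1.12 and 1.20 FPKM in ΔUNG and 1.69 in ΔUNG_2, against 0.685 and 0.756 in the Cas9 control. Its knockout libraries also lay above the control libraries of the same treatment. Only the ΔUNG_2 difference under ATRi passed, with 0.84 ± 0.20 (adjusted p = 0.0447), and was lost with Cas9 control ATRi replicate 1 left out (0.80, adjusted p = 0.137) or with Cas9 control ATRi replicate 2 left out (0.89, adjusted p = 0.0638), and with no filter, with an equal FPKM sum over genes of at least 200 bases or in a fit of only the groups compared; under DMSO the values were 0.56 ± 0.16 and 0.50 ± 0.16 (adjusted p = 0.0654 and 0.0990). Col4a2 was called with ATRi in no line. Col4a5, the chain of the other type IV network, passed no comparison.

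The collagens of cartilage were at low levels. Under DMSO every knockout library lay above both control libraries for Col2a1, Col11a2, Col9a1 and Col9a2, but not for Col9a3. Col2a1, the chain of type II collagen, had 0.798 and 0.814 FPKM in ΔUNG and 0.658 and 0.681 in ΔUNG_2 under DMSO, against 0.171 and 0.212 in the Cas9 control. Col2a1 under ATRi was at 0.573 and 0.463 FPKM in ΔUNG and 0.776 in ΔUNG_2, against 0.319 and 0.209 in the Cas9 control. The knockout libraries lay above the control libraries of the same treatment. It passed the limit through the knockout groups, and its differences under DMSO, 0.92 ± 0.18 in ΔUNG and 0.76 ± 0.18 in ΔUNG_2, are given with no test. Col11a2, a chain of the type XI collagen that co-assembles with type II, had 1.34 and 1.39 FPKM in ΔUNG and 1.37 and 1.25 in ΔUNG_2 under DMSO, against 0.663 and 0.390 in the Cas9 control. Col11a2 under ATRi was at 1.28 and 1.47 FPKM in ΔUNG and 1.39 in ΔUNG_2, against 1.14 and 1.07 in the Cas9 control. It was higher by 0.87 ± 0.16 in ΔUNG under DMSO (adjusted p = 0.0120), lost with Cas9 control DMSO replicate 2 left out (0.68, adjusted p = 0.0791) or with ΔUNG DMSO replicate 2 left out (0.85, adjusted p = 0.0582), and in a fit of only the groups compared, and by 0.83 ± 0.16 in ΔUNG_2 (adjusted p = 0.0143), lost with Cas9 control DMSO replicate 2 left out (0.64, adjusted p = 0.103), with ΔUNG_2 DMSO replicate 1 left out (0.78, adjusted p = 0.104) or with ΔUNG_2 DMSO replicate 2 left out (0.87, adjusted p = 0.0791). ATRi raised it in the control by 0.66 ± 0.16 (adjusted p = 0.0131), lost with Cas9 control ATRi replicate 1 left out (0.63, adjusted p = 0.0566) or with Cas9 control DMSO replicate 2 left out (0.46, adjusted p = 0.0995), and in a fit of only the groups compared. Col9a1, of the type IX collagen that coats type II fibrils, had 1.28 and 2.25 FPKM in ΔUNG and 2.20 and 2.28 in ΔUNG_2 under DMSO, against 0.452 and 0.998 in the Cas9 control. Col9a1 under ATRi was at 0.742 and 0.854 FPKM in ΔUNG and 1.45 in ΔUNG_2, against 0.333 and 0.764 in the Cas9 control. It was higher in ΔUNG_2 under DMSO by 1.20 ± 0.28 (adjusted p = 0.0318), lost with Cas9 control DMSO replicate 1 left out (0.87, adjusted p = 0.199), with ΔUNG_2 DMSO replicate 1 left out (1.22, adjusted p = 0.139) or with ΔUNG_2 DMSO replicate 2 left out (1.18, adjusted p = 0.156), and with no filter. Col9a3, another type IX chain, had 0.771 and 1.35 FPKM under ATRi, against 0.848 and 0.808 under DMSO, in ΔUNG. ΔUNG_2 had 1.22 against 0.622 and 0.475, and the Cas9 control 1.504 and 1.71 against 0.949 and 0.706. It was called with ATRi in ΔUNG_2 (0.72 ± 0.25, adjusted p = 0.0479), lost with ΔUNG_2 DMSO replicate 1 left out (0.82, adjusted p = 0.0755) or with ΔUNG_2 DMSO replicate 2 left out (0.62, adjusted p = 0.162), and with a pseudocount of 1, with no filter, with an equal FPKM sum over genes of at least 200 bases, in a fit of only the groups compared or with the replicate number as a block, and in the control (0.67 ± 0.20, adjusted p = 0.0307), lost with any of the 4 libraries left out (values of 0.54 to 0.80, adjusted p = 0.0539 to 0.169). Col9a3 lay lower in ΔUNG_2 than in the control under DMSO, by an amount that passed no test, and Col9a2 passed no comparison.

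Col15a1, a collagen of the basement membrane zone, was higher with ATRi in each line. Col15a1 had 4.33 and 4.21 FPKM under ATRi, against 3.23 and 2.98 under DMSO, in ΔUNG. ΔUNG_2 had 5.42 against 2.9999 and 3.65, and the Cas9 control 3.51 and 3.94 against 2.52 and 2.23. It rose by 0.41 ± 0.12 in ΔUNG (adjusted p = 0.0231), lost with ΔUNG ATRi replicate 1 left out (0.39, adjusted p = 0.0897), with ΔUNG ATRi replicate 2 left out (0.42, adjusted p = 0.0728) or with ΔUNG DMSO replicate 2 left out (0.36, adjusted p = 0.109), and by 0.64 ± 0.14 in ΔUNG_2 and 0.56 ± 0.12 in the control (adjusted p = 0.00783 and 0.00593), in all leave-outs. Col5a1, which sets the diameter of collagen fibrils, had 3.39 and 3.21 FPKM under ATRi, against 4.41 and 4.71 under DMSO, in ΔUNG. ΔUNG_2 had 4.44 against 4.28 and 4.28, and the Cas9 control 4.76 and 5.35 against 5.07 and 5.42. It was lower in ΔUNG with ATRi, at -0.41 ± 0.09 (adjusted p = 0.00783), and lower there than in the ATRi control, at -0.55 ± 0.09 (adjusted p = 0.0103). The difference from the control was lost with Cas9 control ATRi replicate 2 left out (-0.47, adjusted p = 0.0502) or with ΔUNG ATRi replicate 2 left out (-0.51, adjusted p = 0.0797), and in a fit of only the groups compared. Col20a1, a collagen that attaches to fibrils, had 4.05 and 4.40 FPKM under ATRi, against 2.74 and 2.67 under DMSO, in ΔUNG. ΔUNG_2 had 3.56 against 2.06 and 2.81, and the Cas9 control 2.61 and 2.80 against 2.71 and 1.77. It was higher with ATRi in ΔUNG by 0.56 ± 0.17 (adjusted p = 0.0318), lost with any of the 4 libraries left out (values of 0.51 to 0.61, adjusted p = 0.0758 to 0.136), and with no filter. The ceramide transfer gene Col4a3bp, which is no collagen, was lower with ATRi in each line, with log2 fold changes of -0.29 ± 0.10, -0.46 ± 0.12 and -0.39 ± 0.10 in ΔUNG, ΔUNG_2 and the control (adjusted p = 0.0442, 0.0149 and 0.0136). It had 4.43 and 4.96 FPKM under ATRi, against 5.70 and 5.97 under DMSO, in ΔUNG. ΔUNG_2 had 4.18 against 5.90 and 6.01, and the Cas9 control 4.78 and 4.10 against 6.10 and 5.81. Its calls were lost in ΔUNG with any of the 4 libraries left out (values of -0.36 to -0.22, adjusted p = 0.0550 to 0.205), and with no filter, with median-ratio rescaling, in a fit of only the groups compared or with the replicate number as a block, in ΔUNG_2 with ΔUNG_2 DMSO replicate 1 left out (-0.47, adjusted p = 0.05) or with ΔUNG_2 DMSO replicate 2 left out (-0.45, adjusted p = 0.0598) and in the control with Cas9 control ATRi replicate 2 left out (-0.29, adjusted p = 0.0826) or with Cas9 control DMSO replicate 1 left out (-0.36, adjusted p = 0.0788). Col16a1, a fibril-associated collagen and the most abundant of the collagen rows, had 5.91 and 5.08 FPKM under ATRi, against 7.98 and 6.66 under DMSO, in ΔUNG. ΔUNG_2 had 7.42 against 7.72 and 6.29, and the Cas9 control 7.47 and 8.40 against 9.23 and 7.66. It passed no comparison, nor did Col5a3 and Col27a1.

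Mmp15 (chr8:95352268-95375080) encodes MT2-MMP, a protease anchored in the cell membrane. Mmp15 had 9.21 and 9.03 FPKM under ATRi, against 2.88 and 2.45 under DMSO, in ΔUNG. ΔUNG_2 had 8.91 against 2.05 and 2.00, and the Cas9 control 4.53 and 4.11 against 1.41 and 1.28. The ATRi libraries lay above the DMSO libraries in every line, and the knockout lines lay above the control within each treatment. ATRi raised it by 1.61 ± 0.10 in ΔUNG, 1.90 ± 0.13 in ΔUNG_2 and 1.39 ± 0.10 in the control (adjusted p = 1.07e-05, 1.82e-05 and 2.27e-05), in all leave-outs. Against the control it was higher by 0.78 ± 0.10 in ΔUNG under DMSO and by 1.00 ± 0.10 in ΔUNG and 0.97 ± 0.13 in ΔUNG_2 under ATRi (adjusted p = 0.00235, 0.000565 and 0.00323), in all leave-outs. In ΔUNG_2 under DMSO the value was 0.46 ± 0.10 (adjusted p = 0.0275), lost with any of the 4 libraries left out (values of 0.41 to 0.51, adjusted p = 0.0851 to 0.155), and in a fit of only the groups compared or by limma-voom on fragments. Mmp15 lies in the chromosome 8 stretch whose median differed between the lines. Under DMSO its difference in ΔUNG lay above the upper quartile of that stretch, 0.51, while in ΔUNG_2 it lay below the upper quartile there, 0.47. Under ATRi its differences of 1.00 and 0.97 lay above the upper quartiles, 0.47 in ΔUNG and 0.57 in ΔUNG_2.

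Mmp2, gelatinase A, lies in the same stretch. Mmp2 had 3.94 and 4.28 FPKM under ATRi, against 2.84 and 2.04 under DMSO, in ΔUNG. ΔUNG_2 had 4.30 against 2.48 and 2.46, and the Cas9 control 2.49 and 2.29 against 1.57 and 1.58. It lay higher under ATRi in every line, and within each treatment the knockout libraries lay above the control libraries. With ATRi it rose by 0.66 ± 0.14 in ΔUNG and 0.69 ± 0.17 in ΔUNG_2 (adjusted p = 0.00486 and 0.0108), in all leave-outs, and in the control by 0.48 ± 0.14 (adjusted p = 0.0247), lost with any of the 4 libraries left out (values of 0.42 to 0.53, adjusted p = 0.0542 to 0.102). Against the control it was higher in ΔUNG_2 under DMSO by 0.52 ± 0.14 (adjusted p = 0.0492), lost with any of the 4 libraries left out (values of 0.51 to 0.52, adjusted p = 0.178 to 0.199), and with a pseudocount of 1, with no filter, with the replicate number as a block or by limma-voom on fragments. Under ATRi it was higher in ΔUNG by 0.67 ± 0.14 (adjusted p = 0.0204), lost with any of the 4 libraries left out (values of 0.62 to 0.73, adjusted p = 0.0611 to 0.135), and in ΔUNG_2 by 0.73 ± 0.17 (adjusted p = 0.0387), lost with Cas9 control ATRi replicate 1 left out (0.78, adjusted p = 0.0898) or with Cas9 control ATRi replicate 2 left out (0.68, adjusted p = 0.0783), and with no filter, in a fit of only the groups compared or with the replicate number as a block.

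Mmp14, MT1-MMP, activates the proenzyme of MMP2 on the cell surface together with TIMP2, and was the most abundant MMP. Mmp14 had 28.8 and 29.6 FPKM under ATRi, against 35.5 and 36.1 under DMSO, in ΔUNG. ΔUNG_2 had 31.0 against 34.3 and 36.5, and the Cas9 control 28.4 and 28.3 against 37.2 and 37.2. It fell with ATRi in ΔUNG, at -0.29 ± 0.06 and in the control at -0.39 ± 0.06 (adjusted p = 0.00475 and 0.00110), in all leave-outs. In ΔUNG_2 its value was -0.19 ± 0.07 (adjusted p = 0.0729). Mmp14 and Mmp15, both membrane proteases, lay on opposite sides of 0 with ATRi in each line. Mmp11, stromelysin 3, passed no comparison.

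TIMP3 is bound to the matrix and inhibits several ADAM and ADAMTS proteases besides the MMPs. Timp3 (chr10:86300372-86349506) had 1.67 and 1.505 FPKM under ATRi, against 3.51 and 2.84 under DMSO, in ΔUNG. ΔUNG_2 had 1.68 against 3.62 and 3.84, and the Cas9 control 1.45 and 1.39 against 3.97 and 3.64. Every ATRi library lay below every DMSO library. With ATRi it fell, at -0.81 ± 0.12 in ΔUNG, -0.96 ± 0.15 in ΔUNG_2 and -1.17 ± 0.12 in the control (adjusted p = 0.000883, 0.00130 and 0.000131), in all leave-outs. In the annotation 21.3% of its exon bases overlap exons of Syn3 on the opposite strand, and the strand of the counting is not given in the sources used here. The ratio of Mmp14 to Timp3 in FPKM was 17.3 to 20.3 in the ATRi libraries, against 9.36 to 12.7 in the DMSO libraries. That of Mmp14 to Timp2 ran the other way, at 0.489 to 0.604 in the ATRi libraries, against 0.631 to 0.878 in the DMSO libraries. Timp2, the most abundant inhibitor, had 52.9 and 48.9 FPKM under ATRi, against 46.3 and 41.1 under DMSO, in ΔUNG. ΔUNG_2 had 55.3 against 42.4 and 44.4, and the Cas9 control 55.2 and 57.8 against 59.0 and 52.5. It was lower under DMSO in ΔUNG, at -0.35 ± 0.08 (adjusted p = 0.0330), lost with Cas9 control DMSO replicate 1 left out (-0.27, adjusted p = 0.215), with Cas9 control DMSO replicate 2 left out (-0.43, adjusted p = 0.0542) or with ΔUNG DMSO replicate 2 left out (-0.26, adjusted p = 0.147), and with no filter, in a fit of only the groups compared or with no intensity trend, and in ΔUNG_2 at -0.35 ± 0.08 (adjusted p = 0.0311), lost with any of the 4 libraries left out (values of -0.44 to -0.27, adjusted p = 0.0535 to 0.210), and with no intensity trend. With ATRi it was higher in ΔUNG_2 by 0.35 ± 0.10 (adjusted p = 0.0266), lost with ΔUNG_2 DMSO replicate 1 left out (0.31, adjusted p = 0.109) or with ΔUNG_2 DMSO replicate 2 left out (0.38, adjusted p = 0.0611), and with an equal FPKM sum over genes of at least 200 bases, with the replicate number as a block or with no intensity trend. Timp1 had 9.87 and 9.03 FPKM under ATRi, against 9.71 and 9.27 under DMSO, in ΔUNG. ΔUNG_2 had 12.5 against 8.87 and 8.003, and the Cas9 control 8.74 and 19.0 against 10.6 and 12.1. It passed no comparison, and Cas9 control ATRi replicate 2 stood apart from replicate 1.

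The promoters of 3 protease genes and of Timp3 are shown, as examples of the genes called with ATRi in every line. Others so called were Adam12, Adamts4, Mmp2, Itga5, Itga9, Itgb3bp, Lamb1, Col15a1 and Col4a3bp. Each sequence gives 300 bases of RefSeq on GRCm38.p6, from 250 before to 50 after the start. It runs 5′ to 3′ on the gene's strand, with GC boxes (GGGCGG on either strand) in capitals. Mmp15 is chr8:95352046-95352345 (plus strand), Timp3 chr10:86300162-86300461 (plus), Adamts14 chr10:61273370-61273669 (minus) and Adamts1 chr16:85803064-85803363 (minus).
Mmp15: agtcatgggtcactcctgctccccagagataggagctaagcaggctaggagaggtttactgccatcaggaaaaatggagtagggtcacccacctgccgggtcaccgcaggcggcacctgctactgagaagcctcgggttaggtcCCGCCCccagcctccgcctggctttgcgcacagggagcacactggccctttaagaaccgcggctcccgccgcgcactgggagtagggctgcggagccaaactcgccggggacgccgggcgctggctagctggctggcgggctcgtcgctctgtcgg
Timp3: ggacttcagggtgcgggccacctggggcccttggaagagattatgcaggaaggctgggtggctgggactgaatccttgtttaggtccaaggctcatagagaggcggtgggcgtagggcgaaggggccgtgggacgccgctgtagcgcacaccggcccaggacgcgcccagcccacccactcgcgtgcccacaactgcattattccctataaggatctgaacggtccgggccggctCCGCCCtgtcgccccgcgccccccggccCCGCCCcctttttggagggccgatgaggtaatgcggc
Adamts14: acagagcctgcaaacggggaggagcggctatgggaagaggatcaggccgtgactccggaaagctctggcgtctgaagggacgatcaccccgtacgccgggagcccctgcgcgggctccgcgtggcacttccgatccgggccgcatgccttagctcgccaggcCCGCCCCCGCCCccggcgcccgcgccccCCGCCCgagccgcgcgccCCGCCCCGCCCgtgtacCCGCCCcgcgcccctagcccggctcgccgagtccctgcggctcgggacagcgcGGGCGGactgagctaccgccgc
Adamts1: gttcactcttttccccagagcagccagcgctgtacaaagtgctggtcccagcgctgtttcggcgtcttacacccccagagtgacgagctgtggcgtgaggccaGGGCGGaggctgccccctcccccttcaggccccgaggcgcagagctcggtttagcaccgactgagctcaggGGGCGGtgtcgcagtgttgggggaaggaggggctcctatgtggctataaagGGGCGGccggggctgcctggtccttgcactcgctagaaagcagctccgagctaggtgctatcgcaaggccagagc
The windows hold 1 (Mmp15), 2 (Timp3), 7 (Adamts14), 3 (Adamts1) and, for Col4a2, 3 GC boxes. None of them holds an AP-1 site (TGANTCA), an E-box (CACGTG), a CRE core (TGACGT) or an EGR site (GCGTGGGCG) on either strand. Promoter windows were matched by symbol for 40 of the 53 genes, in 44 windows. Of these 31 hold a GC box, 3 an AP-1 site, 2 an E-box, 3 a CRE core and 0 an EGR site. Of all 32851 windows in the table, 35.7% hold a GC box, 7.81% an AP-1 site, 7.15% an E-box, 7.51% a CRE core and 0.612% an EGR site. The E-box and the CRE core both hold the letters ACGT, but the letters beside these differ, so the same ACGT cannot match both. A match or its lack says only which letters stand in the window.

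Adam12 (chr7:133883199-134232146) encodes a metalloprotease that sheds growth factor precursors. Adam12 had 8.05 and 7.95 FPKM under ATRi, against 3.76 and 4.37 under DMSO, in ΔUNG. ΔUNG_2 had 10.6 against 3.93 and 4.35, and the Cas9 control 6.12 and 6.32 against 1.27 and 1.48. Under DMSO both knockout lines stood well above the control, and every line was higher under ATRi. It was higher by 1.28 ± 0.10 in ΔUNG and 1.31 ± 0.10 in ΔUNG_2 under DMSO (adjusted p = 0.000214 and 0.000159), in all leave-outs. Under ATRi the difference from the control was 0.34 ± 0.10 in ΔUNG (adjusted p = 0.0907) and 0.72 ± 0.13 in ΔUNG_2 (adjusted p = 0.0133), the second lost with Cas9 control ATRi replicate 1 left out (0.70, adjusted p = 0.0584), and in a fit of only the groups compared. ATRi raised Adam12 by 0.90 ± 0.10 in ΔUNG, 1.26 ± 0.13 in ΔUNG_2 and 1.84 ± 0.10 in the control (adjusted p = 0.000177, 0.000116 and 6.98e-06), in all leave-outs.

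The other ADAM genes moved little. Adam9 and Adam10 were the most abundant. Adam9, a sheddase, had 58.4 and 62.2 FPKM under ATRi, against 59.4 and 64.3 under DMSO, in ΔUNG. ΔUNG_2 had 59.8 against 57.7 and 60.04, and the Cas9 control 55.3 and 52.8 against 57.1 and 56.9. It passed no comparison. Adam10, the sheddase of Notch and many adhesion proteins, had 34.8 and 37.5 FPKM under ATRi, against 28.8 and 29.7 under DMSO, in ΔUNG. ΔUNG_2 had 31.4 against 29.5 and 28.8, and the Cas9 control 32.9 and 32.7 against 30.2 and 32.9. It was higher with ATRi in ΔUNG by 0.30 ± 0.07 (adjusted p = 0.00773), lost with ΔUNG ATRi replicate 2 left out (0.24, adjusted p = 0.0584). Adam19 had 1.84 and 1.95 FPKM under ATRi, against 1.51 and 2.17 under DMSO, in ΔUNG. ΔUNG_2 had 2.36 against 1.83 and 1.68, and the Cas9 control 2.22 and 2.05 against 1.06 and 1.51. In the control it was higher with ATRi by 0.57 ± 0.17 (adjusted p = 0.0286), lost with Cas9 control ATRi replicate 1 left out (0.53, adjusted p = 0.108), with Cas9 control ATRi replicate 2 left out (0.62, adjusted p = 0.0692) or with Cas9 control DMSO replicate 1 left out (0.39, adjusted p = 0.180), and in a fit of only the groups compared; 10.1% of its exon bases overlap antisense genes. Adam17, the TNF-converting enzyme, Adam15 and Adam23, whose product lacks protease activity, passed no comparison.

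ADAMTS proteases are secreted. ADAMTS14 removes the N-terminal propeptide from fibrillar procollagens, and ADAMTS1 and ADAMTS4 cut the proteoglycans aggrecan and versican. Adamts14 (chr10:61197112-61273438) had 4.89 and 5.64 FPKM under ATRi, against 1.65 and 1.37 under DMSO, in ΔUNG. ΔUNG_2 had 5.86 against 1.30 and 0.994, and the Cas9 control 7.19 and 7.12 against 3.03 and 3.62. It was lowest in the knockout lines under DMSO and highest in the control under ATRi, and every ATRi library lay above every DMSO library. Under DMSO it was lower, at -0.93 ± 0.14 in ΔUNG and -1.22 ± 0.14 in ΔUNG_2 (adjusted p = 0.00348 and 0.000828), in all leave-outs. Under ATRi the values were -0.41 ± 0.14 and -0.27 ± 0.17 (adjusted p = 0.112 and 0.385), short of the threshold. ATRi raised it by 1.52 ± 0.14 in ΔUNG, 1.95 ± 0.17 in ΔUNG_2 and 1.01 ± 0.14 in the control (adjusted p = 4.11e-05, 5.01e-05 and 0.000544), in all leave-outs.

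Adamts1 was the most abundant ADAMTS gene and ran in the same order. Adamts1 had 46.3 and 51.0 FPKM under ATRi, against 23.9 and 26.2 under DMSO, in ΔUNG. ΔUNG_2 had 53.6 against 24.98 and 23.1, and the Cas9 control 60.3 and 61.5 against 34.2 and 37.9. Under DMSO it was lower, at -0.51 ± 0.08 in ΔUNG (adjusted p = 0.00543), lost with Cas9 control DMSO replicate 2 left out (-0.44, adjusted p = 0.0507), and at -0.57 ± 0.08 in ΔUNG_2 (adjusted p = 0.00300), in all leave-outs. With ATRi it rose by 0.94 ± 0.08 in ΔUNG, 1.14 ± 0.10 in ΔUNG_2 and 0.75 ± 0.08 in the control (adjusted p = 3.52e-05, 5.42e-05 and 0.000162), in all leave-outs. Adamts4 had 13.5 and 15.01 FPKM under ATRi, against 6.98 and 6.70 under DMSO, in ΔUNG. ΔUNG_2 had 16.01 against 6.57 and 5.75, and the Cas9 control 12.7 and 12.3 against 6.20 and 6.04. Its lines did not differ by a called amount under either treatment, and with ATRi it rose by 1.01 ± 0.09 in ΔUNG, 1.31 ± 0.11 in ΔUNG_2 and 0.97 ± 0.09 in the control (adjusted p = 3.35e-05, 3.94e-05 and 5.28e-05), in all leave-outs.

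Adamts20, which cuts versican and in mice is needed for melanoblasts to spread through the skin, moved down. Adamts20 had 1.09 and 1.24 FPKM under ATRi, against 1.92 and 2.08 under DMSO, in ΔUNG. ΔUNG_2 had 1.27 against 2.21 and 2.35, and the Cas9 control 1.89 and 1.73 against 2.14 and 2.30. With ATRi it fell, at -0.59 ± 0.12 in ΔUNG and -0.65 ± 0.15 in ΔUNG_2 (adjusted p = 0.00454 and 0.00793), in all leave-outs, with -0.24 ± 0.12 in the control (adjusted p = 0.160). Against the control under ATRi it was lower in ΔUNG, at -0.48 ± 0.12 (adjusted p = 0.0494), lost with any of the 4 libraries left out (values of -0.54 to -0.41, adjusted p = 0.0927 to 0.188), and with a pseudocount of 1, in a fit of only the groups compared or with the replicate number as a block. Adamts10, which binds fibrillin, had 1.75 and 1.44 FPKM under ATRi, against 2.04 and 1.98 under DMSO, in ΔUNG. ΔUNG_2 had 2.16 against 2.03 and 2.01, and the Cas9 control 2.80 and 2.53 against 1.46 and 1.72. It was higher with ATRi in the control by 0.60 ± 0.13 (adjusted p = 0.00638), lost with Cas9 control DMSO replicate 1 left out (0.51, adjusted p = 0.0505), and below the ATRi control in ΔUNG, at -0.60 ± 0.13 (adjusted p = 0.0258), lost with Cas9 control ATRi replicate 1 left out (-0.53, adjusted p = 0.126), with Cas9 control ATRi replicate 2 left out (-0.66, adjusted p = 0.0564) or with ΔUNG ATRi replicate 2 left out (-0.49, adjusted p = 0.159), and in a fit of only the groups compared. Adamts13, which cuts von Willebrand factor, had 1.49 and 1.82 FPKM under ATRi, against 1.02 and 0.752 under DMSO, in ΔUNG. ΔUNG_2 had 1.34 against 0.939 and 0.721, and the Cas9 control 1.21 and 0.949 against 1.04 and 0.530. It was higher with ATRi in ΔUNG by 0.64 ± 0.22 (adjusted p = 0.0470), lost with any of the 4 libraries left out (values of 0.50 to 0.78, adjusted p = 0.0619 to 0.212), and with a pseudocount of 0.1, with no filter or with an equal FPKM sum over genes of at least 200 bases. Adamts12 passed no comparison.

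**Figure D3:**
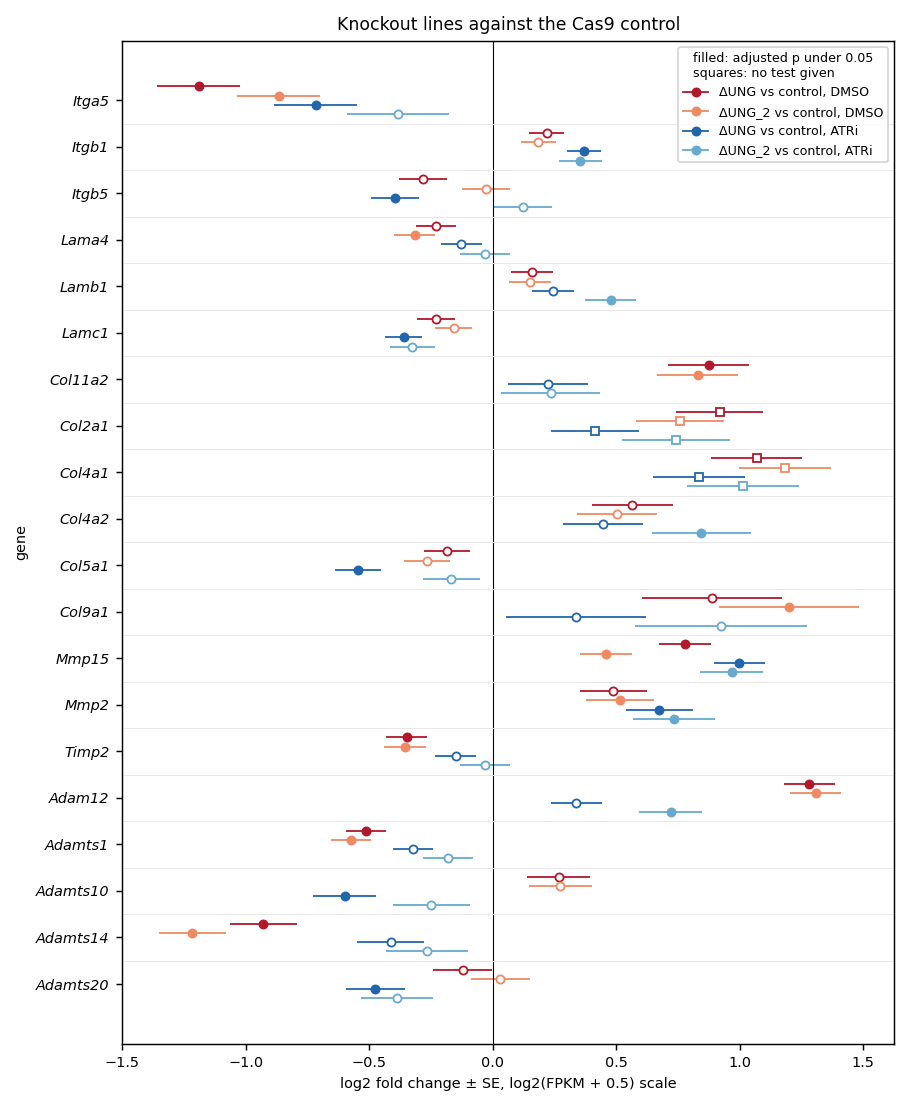
Log2 fold change against the Cas9 control with its SE (bars) for the 20 genes called in at least 1 of 4 comparisons, on the log2(FPKM + 0.5) scale; filled points have an adjusted p under 0.05, and open squares mark genes that passed the limit through their higher groups, with no test given. Adam12, Col4a1 and Mmp15 lie to the right and Itga5, Adamts14 and Adamts1 to the left, and most filled points beyond these lie within 1 log2 unit of 0.

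**Figure D4:**
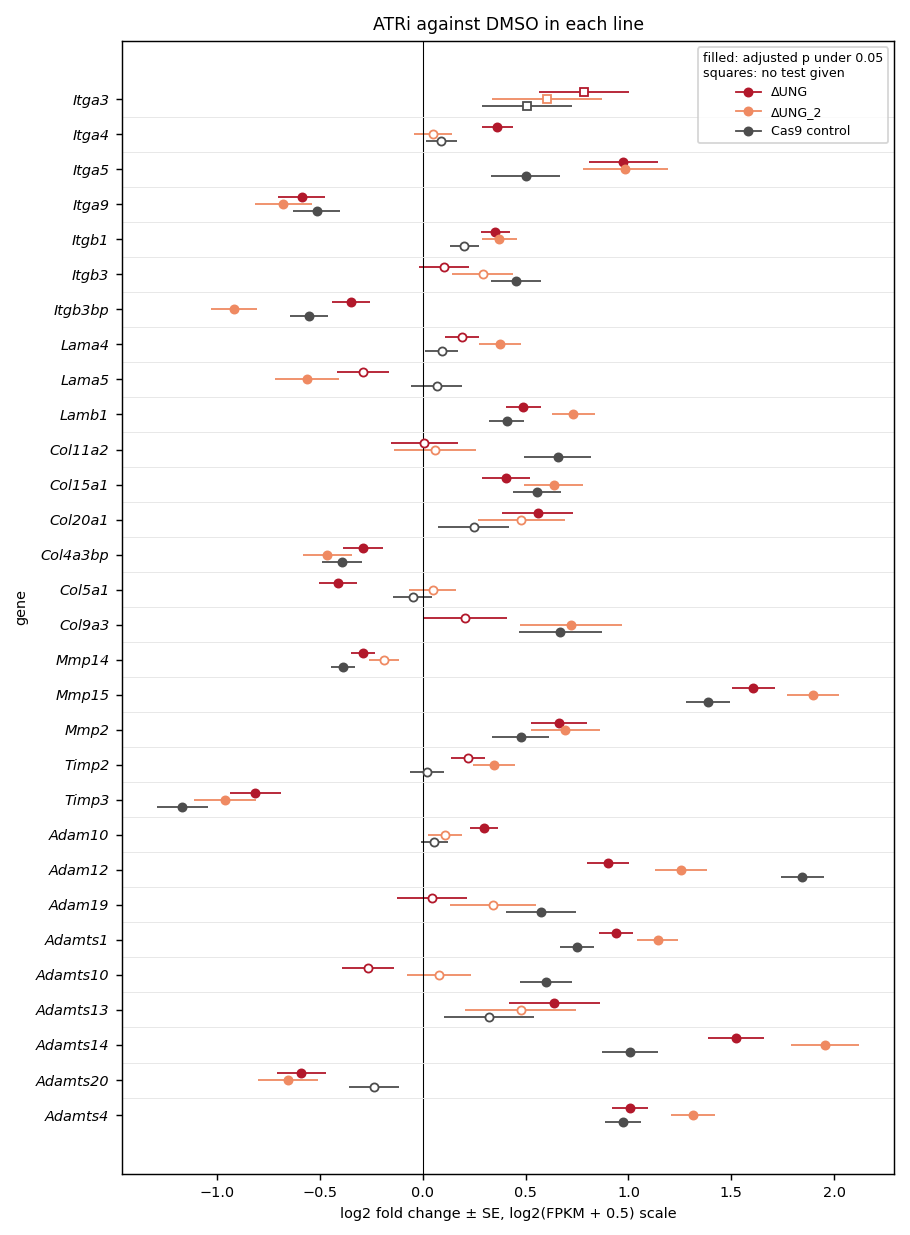
Log2 fold change of ATRi against DMSO with its SE (bars) in ΔUNG, ΔUNG_2 and the Cas9 control for the 30 genes called in at least 1 line; filled points have an adjusted p under 0.05, and open squares (Itga3) have no test given. Mmp15, Adam12, Adamts14, Adamts1 and Adamts4 lie farthest right in ΔUNG_2 and the Cas9 control. In ΔUNG, Itga5 lies to the right of Adam12 and Adamts1. Timp3, Itga9 and Itgb3bp lie left of 0 in each line.

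Whether the response to ATRi differed between the knockout lines and the control was tested as a difference of differences. By limma none of the 53 genes passed, in ΔUNG against the control or in ΔUNG_2 against the control, where 0.0177% and 0.0707% of all genes did. At an unadjusted p under 0.05 there were 7 and 11 of the 53, a level at which all genes were not counted. Limma-voom on fragments called 1 and 2 of the 53. Over all 11323 genes it called 27 higher and 46 lower for ΔUNG, and 40 higher and 23 lower for ΔUNG_2. For Adam12 the log2 fold change with ATRi in ΔUNG minus that in the control was -0.94 ± 0.15 (adjusted p = 0.0627) and the value in ΔUNG_2 was -0.59 ± 0.16 (adjusted p = 0.216). Limma-voom called both, with -1.19 (adjusted p = 0.00208) and -0.85 (adjusted p = 0.0282). For Adamts14 the values were 0.52 ± 0.19 in ΔUNG and 0.95 ± 0.21 in ΔUNG_2 (adjusted p = 0.301 and 0.161), and limma-voom called the second, with 1.20 (adjusted p = 0.0315). These differences share the control libraries with the comparisons under DMSO and under ATRi, so a gene that lay apart under DMSO and not under ATRi has such a difference by construction.

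The 2 knockout lines were also set against each other under DMSO. Between ΔUNG_2 and ΔUNG none of the 53 genes was called by limma, where 0.0442% of all genes were called. Limma-voom called none of the 53, and 3 higher and 6 lower of all 11323 genes. At an unadjusted p under 0.05 there were 4 of the 53, a level at which all genes were not counted. The log2 differences ran from -0.36 ± 0.12 for Itgb3 to 0.34. Itgb3bp differed by 0.32 ± 0.09 (adjusted p = 0.515) and the difference of Mmp15 was -0.32 ± 0.10 (adjusted p = 0.688). That none passed does not show that the lines were alike.

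The limit of 0.5 FPKM cut through a continuous range. Just inside were Col2a1 at a mean of 0.516 FPKM, Itga1 at 0.553 and Itga3 at 0.558. Itga1, a collagen receptor chain, had 0.538 and 0.480 FPKM under ATRi, against 0.624 and 0.613 under DMSO, in ΔUNG. ΔUNG_2 had 0.537 against 0.651 and 0.576, and the Cas9 control 0.527 and 0.526 against 0.490 and 0.518. It passed no comparison. Just outside were Col10a1 at 0.493, Adamts7 at 0.485 and Itgb2 at 0.454. Col10a1, a collagen of growth plate cartilage, had 0.664 and 0.917 FPKM under ATRi, against 0.108 and 0.131 under DMSO, in ΔUNG. ΔUNG_2 had 1.30 against 0.191 and 0.310, and the Cas9 control 0.483 and 0.724 against 0.192 and 0.400. Adamts7 had 0.552 and 0.689 FPKM under ATRi, against 0.359 and 0.243 under DMSO, in ΔUNG. ΔUNG_2 had 0.775 against 0.470 and 0.497, and the Cas9 control 0.559 and 0.477 against 0.313 and 0.398. Itgb2, the leukocyte β2 subunit, had 0.665 and 0.463 FPKM under ATRi, against 0.757 and 0.520 under DMSO, in ΔUNG. ΔUNG_2 had 0.362 against 0.477 and 0.564, and the Cas9 control 0.184 and 0.383 against 0.304 and 0.321. Col10a1 lay higher in every ATRi library than in every DMSO library, while the others overlapped between treatments.

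Genes that work with these families were counted in 5 lists. Of 39 tested genes of focal adhesion and integrin activation, 16 were higher and 5 lower with ATRi in ΔUNG, 20 and 5 in ΔUNG_2, and 15 and 3 in the control (53.8%, 64.1% and 46.2%). Of all genes 35.8%, 35.4% and 33.6% were called in these comparisons. The medians were 0.15, 0.32 and 0.22, against -0.02, 0.00 and -0.01 over all genes. Ptk2b, the kinase related to focal adhesion kinase, rose by 1.44 ± 0.13, 1.64 ± 0.16 and 1.33 ± 0.13 (adjusted p = 5.11e-05, 0.000111 and 0.000103). Itgav, at 8.08 to 14.3 FPKM, rose by 0.59 ± 0.08, 0.44 ± 0.09 and 0.37 ± 0.08 (adjusted p = 0.000348, 0.00609 and 0.00568). Tln1, the integrin activator talin, rose by 0.74 ± 0.07 in ΔUNG_2 (adjusted p = 6.51e-05). Its ATRi libraries also lay above the DMSO libraries in the other lines. Tln1 had 66.2 and 66.1 FPKM under ATRi, against 47.9 and 46.4 under DMSO, in ΔUNG. The Cas9 control had 69.8 and 68.7 against 49.1 and 48.8. Against the control under DMSO, 4 genes of this list were higher and 1 lower in ΔUNG (12.8%), and 4 higher and 3 lower in ΔUNG_2 (17.9%), where 8.72% and 8.20% of all genes were called. Tns3, a tensin that links integrins to actin, was higher in both, by 0.81 ± 0.08 and 0.84 ± 0.08 (adjusted p = 0.000582 and 0.000406).

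Of 20 tested basement membrane genes and matrix glycoproteins, 6 were higher and 5 lower with ATRi in ΔUNG, 8 and 3 in ΔUNG_2, and 8 and 4 in the control (55%, 55% and 60%, against 35.8%, 35.4% and 33.6% of all genes). The medians were 0.05, 0.34 and 0.12, against -0.02, 0.00 and -0.01 over all genes. Sparc, a collagen-binding matrix protein, rose by 1.23 ± 0.07, 1.79 ± 0.09 and 1.05 ± 0.07 (adjusted p = 6.81e-06, 4.72e-06 and 1.41e-05). Its relative Sparcl1 fell, at -1.01 ± 0.06, -1.13 ± 0.07 and -0.97 ± 0.06 (adjusted p = 6.81e-06, 1.42e-05 and 8.58e-06). Against the control under DMSO, 3 were higher and 2 lower in ΔUNG, and 2 higher and 3 lower in ΔUNG_2 (25% each, against 8.72% and 8.20% of all genes). Npnt, nephronectin, a ligand of integrin α8β1, was higher in both knockout lines, by 1.21 ± 0.13 and 1.14 ± 0.13 (adjusted p = 0.000699 and 0.000828).

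Of 24 tested genes of the plasminogen system and protease regulators, 11 were higher and 2 lower with ATRi in each knockout line, and 11 higher and 3 lower in the control (54.2%, 54.2% and 58.3%, against 35.8%, 35.4% and 33.6% of all genes). The medians were 0.15, 0.16 and 0.24 in ΔUNG, ΔUNG_2 and the control. Ctsb, the lysosomal protease cathepsin B, rose by 1.12 ± 0.08, 1.33 ± 0.10 and 0.72 ± 0.08 (adjusted p = 1.87e-05, 3.62e-05 and 0.000257). Under DMSO it was lower in ΔUNG_2, at -0.78 ± 0.08 (adjusted p = 0.000745). In ΔUNG it was also called lower, at -0.48. That call was lost with Cas9 control DMSO replicate 1 left out (-0.45), and in a fit of only the groups compared. Of the list 4 were higher and 2 lower in ΔUNG under DMSO (25%), and 3 higher and 2 lower in ΔUNG_2 (20.8%). Of all genes 8.72% and 8.20% were called there.

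A further list held components as well as targets of the TGF-beta and YAP pathways. Of its 29 tested genes, 9 were higher and 2 lower with ATRi in ΔUNG, 10 and 2 in ΔUNG_2, and 9 and 4 in the control (37.9%, 41.4% and 44.8%, against 35.8%, 35.4% and 33.6% of all genes). These shares are near those of all genes in ΔUNG and ΔUNG_2. The medians were 0.15, 0.20 and 0.17. Cyr61, a matricellular YAP target, rose by 1.39 ± 0.09, 1.61 ± 0.11 and 0.97 ± 0.09 (adjusted p = 1.25e-05, 2.37e-05 and 8.03e-05). Under DMSO, 3 were higher and 5 lower in ΔUNG (27.6%, against 8.72% of all genes). In ΔUNG_2, 1 was higher and 1 lower (6.90%, against 8.20% of all genes). Of 19 tested genes of collagen synthesis and cross-linking, 6 were higher and 4 lower with ATRi in ΔUNG, 6 and 2 in ΔUNG_2, and 5 and 2 in the control (52.6%, 42.1% and 36.8%, against 35.8%, 35.4% and 33.6% of all genes). The medians were 0.03, 0.15 and 0.09. P3h2, a prolyl 3-hydroxylase of collagen, was lower in both knockout lines under DMSO, at -1.02 ± 0.11 and -1.14 ± 0.11 (adjusted p = 0.000699 and 0.000361). Under DMSO, 3 were higher and 2 lower in ΔUNG (26.3%, against 8.72% of all genes). In ΔUNG_2, 2 were higher and 1 lower (15.8%, against 8.20% of all genes).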

How the data were processed

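The table analysed holds FPKM per gene for 11 libraries, as deposited by the authors; HISAT2 is named per the submitters' processing notes, and its version, the counter and its strandedness are not stated in any source used here. A second deposited table gives clean read counts per library (45692790 to 74973328); 1 of its rows was not used. FPKM times length gave whole fragments for 100% of values within 0.01. Differences were tested with limma 3.58.1 (R 4.3.3) on log2(FPKM + 0.5), with an intensity trend and 1 mean per group over all 11 libraries (5 residual degrees of freedom), on the 11323 genes whose mean reached 0.5 FPKM. Benjamini-Hochberg adjustment ran over these genes in each of the 10 comparisons, two-sided, at 0.05. A fold on this scale understates the change of low genes. Genes and lists were chosen with earlier results of these data known. Values in every library are given, per family and comparison, for up to 5 called genes with the largest change, the 2 most abundant genes of each family, and 3 genes on each side of the limit; genes of the companion lists are among the 3 of smallest adjusted p in a comparison. Other settings were pseudocounts of 0.1 and 1, no filter, a filter at 2 FPKM, median-ratio rescaling, an equal FPKM sum over all genes or over genes of at least 200 bases, fits of only the groups compared, the replicate number as a block, limma-voom on the recovered fragments, no intensity trend, and each library left out. The limma test was tried on simulated data for ΔUNG against the control under DMSO, with changes only in genes of at least 1 FPKM. The other comparisons and steps were not tried in this way. Tables were made with Python 3.11.15 and pandas 2.3.3, and figures with matplotlib 3.10.9. Positions in the table equal those of GENCODE M21 (GRCm38) for all 53 genes. Promoter sequences are RefSeq's on GRCm38.p6.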

Additional observations from a re-analysis of the deposited data

Results flagged for a closer look

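In 4 cases every library of a knockout line lay on one side of its DMSO group under ATRi and every control library on the other, while the difference itself was not called. How many of all genes meet this rule was not counted, so the number of cases says nothing particular about these families. Adamts10 had 1.75 and 1.44 FPKM under ATRi, against 2.04 and 1.98 under DMSO, in ΔUNG. ΔUNG_2 had 2.16 against 2.03 and 2.01, and the Cas9 control 2.80 and 2.53 against 1.46 and 1.72. The ATRi libraries of ΔUNG lay below its DMSO libraries and those of the control above theirs. The difference of the log2 fold changes, ΔUNG minus control, was -0.87 (limma, adjusted p = 0.115). Col9a2 had 0.976 and 1.18 FPKM under ATRi, against 1.26 and 1.27 under DMSO, in ΔUNG. ΔUNG_2 had 1.15 against 1.23 and 1.10, and the Cas9 control 1.14 and 0.991 against 0.988 and 0.668. Its difference was -0.41 for ΔUNG (adjusted p = 0.473). Itga1, close to the limit of 0.5 FPKM, differed by -0.18 for ΔUNG (adjusted p = 0.764) and by -0.13 for ΔUNG_2 (adjusted p = 0.885). With 1 or 2 libraries a group, none of the 4 differences passed the threshold.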

How the results depend on the processing

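Of the 98 calls made on the 53 genes, none reversed in any of the 11 other settings. The calls lost were 2 and 3 with a pseudocount of 0.1 or 1, 14 with no filter, 0 of 77 with a filter at 2 FPKM, 1 with median-ratio rescaling, 51 with an equal FPKM sum, 7 with that sum over genes of at least 200 bases (chosen after seeing the data), 22 in fits of only the groups compared, 10 with the replicate number as a block, 2 by limma-voom and 8 with no intensity trend. Limma-voom on fragments gained 40. Counts moved by over 1.5 times as follows. With an equal FPKM sum, they were 7 in ΔUNG_2 against the control under DMSO, 3 in ΔUNG and 0 in ΔUNG_2 under ATRi, and 12, 10 and 9 for ATRi in ΔUNG, ΔUNG_2 and the control; this setting moves the median of all genes by -0.11 (ΔUNG) and -0.13 (ΔUNG_2) under DMSO. Over genes of at least 200 bases, ΔUNG_2 under ATRi had 4. In fits of only the groups compared, 3 were called in ΔUNG and 1 in ΔUNG_2 under ATRi. Limma-voom called 14 in ΔUNG under DMSO, 19 in ΔUNG and 14 in ΔUNG_2 under ATRi, and 1 and 2 for the response differences of ΔUNG and ΔUNG_2. The cause was not tested.

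With the replicate number as a block, 3 genes were called in ΔUNG_2 against the control under ATRi. The deviations of same-numbered libraries from their group means correlated at -0.124 to 0.0436 over 10 pairs of groups. The labels do not say what a replicate number shares, and whether same-numbered libraries shared a batch was not tested.

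Without 1 library at a time, the calls ranged from 5 to 8 (ΔUNG, DMSO), 3 to 5 (ΔUNG_2, DMSO), 1 to 4 (ΔUNG, ATRi), 2 to 2 (ΔUNG_2, ATRi), and for ATRi from 16 to 19 in ΔUNG, 13 to 14 in ΔUNG_2 and 12 to 18 in the control; the response differences and the comparison of the 2 knockout lines stayed at 0. Changes of sign were looked for only where a gene was called in the comparison in at least 1 of the fits. Among these, the value of Itgb1bp1 with ATRi in the control changed sign, at -0.33 to 0.059 (above 0 without Cas9 control ATRi replicate 1). Values of Timp1 changed sign without Cas9 control ATRi replicate 2, at -0.97 to 0.10 for ΔUNG against the control under ATRi and -0.36 to 0.72 for ATRi in the control. None of these was called in the fit of all libraries. A group with 1 library left is assumed to vary like the others. The depth limits low genes most: 3 fragments on a gene of 1 kb are 0.105 to 0.176 FPKM.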

Other observations

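The 43 rows of these families under 0.5 FPKM were tested with no filter on the level, over 14486 genes. Against the control, 1 was higher in ΔUNG under DMSO (Col6a1, a chain of type VI collagen, at 0.73 on the log2 scale, adjusted p = 0.0348), where 5.94% of all genes were called. In ΔUNG_2, 1 was higher (Col11a1, at 0.48, adjusted p = 0.0228; 5.92% of all genes). Under ATRi, 2 were higher in ΔUNG, Col6a1 at 0.71 (adjusted p = 0.0427) and Col23a1 at 0.43 (adjusted p = 0.0455), and 1 lower, Mmp12 at -0.33 (adjusted p = 0.0377), where 5.03% of all genes were called. In ΔUNG_2 under ATRi Col6a1 was higher, at 1.18 (adjusted p = 0.0180; 3.49% of all genes). With ATRi 10 of the 43 were higher and 3 lower in ΔUNG, 8 and 1 in ΔUNG_2 and 5 and 1 in the control, where 29.1%, 27.9% and 26.9% of all genes were called. Col10a1 was higher with ATRi at 1.05 in ΔUNG and 1.27 in ΔUNG_2 (adjusted p = 0.00404 and 0.00501). Timp4, the fourth inhibitor, was lower at -0.56 and -0.58 (adjusted p = 0.0222 and 0.0409). Col1a2, a chain of type I collagen, was lower at -0.58 in ΔUNG and -0.59 in the control (adjusted p = 0.0105 and 0.0111). These genes were chosen after their values were seen, and such low values rest on few fragments.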
